A study of Mus musculus with 8 samples.

Results

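The chemokine ligand genes were examined in an ATAC-seq comparison of leukemic with non-leukemic mouse marrow cells. In ATAC-seq, a transposase inserts sequencing adapters where chromatin is open. A region of open chromatin was counted as a member when the gene nearest to its centre, within 100 kb, was a Ccl or Cxcl gene, Ppbp, Xcl1 or Cx3cl1. A region whose centre lay inside several gene extents was counted where 1 of them was such a gene, which was so for 8 regions. This gave 114 of 160978 regions, at 30 of 41 chemokine ligand genes in the annotation, with Pf4 left out. The other 11 genes, Ccl11, Ccl6, Ppbp, Cxcl11, Ccl26, Ccl19, Ccl27b and all of Ccl21a, Ccl21b, Ccl21c and Ccl21d, were the nearest gene of no region. The member farthest from its gene lay 76.0 kb away, at Ccl1, with a log2 fold change of -0.99 per the authors' deposited table, and 0 regions fell just outside the 100 kb limit.

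Per the labels, 8 libraries came from cKit+ Lymph- Ery- cells of mouse bone marrow, which takes in stem cells and progenitors. The 4 libraries labelled AML (acute myeloid leukemia) comprised 2 of URE-delta/+;Tet2+/- and 2 of URE-delta/+;Tet2-/- mice. The 4 labelled Normal comprised 1 each of URE-delta/+;Tet2+/+, URE+/+;Tet2+/-, URE+/+;Tet2-/- and URE+/+;Tet2+/+ mice, and the series describes controls as matched for age. The URE is a distal enhancer of Spi1, the gene of the myeloid transcription factor PU.1, and Tet2 encodes an enzyme that oxidises 5-methylcytosine in DNA. The deposited values are a single fold change, leukemic over non-leukemic with low PU.1, per region. Which of the libraries entered each side was not given in the sources used here. Only 1 normal library carried the URE deletion and 0 carried it together with Tet2 loss, so the disease and the combined genotype cannot be told apart. The AML libraries were on lanes 6 and 7, and lane 8 held only the Normal URE+/+;Tet2+/- and URE+/+;Tet2-/- libraries. Any part of the lane in the comparison was not tested. Without values for single libraries, the spread between mice and the depth are unknown for all that follows.

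Chemokines are small secreted proteins that steer leukocytes along concentration gradients through G protein-coupled receptors. They are named for the spacing of their first cysteines, as CXC (Cxcl), CC (Ccl), C (Xcl1) and CX3C (Cx3cl1) ligands. Many lie side by side in tandem arrays, the CXC ligands of neutrophils on mouse chromosome 5 and the CC ligands of monocytes on chromosome 11. Inflammatory chemokine genes are typical targets of NF-kB, while Cxcl12 is the constitutive ligand that holds stem cells and neutrophils in the marrow.

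Promoter sequences are shown for the ligands whose start lies in a region that carries a result, and for their closest counterparts. RefSeq (GRCm38.p6) promoter windows, 250 bases before to 50 after a gene's start, were found for 29 of the 41 genes. Capitals mark NF-kB (GGGNNNTTCC) and PU.1 core (GAGGAA) letters and the TATA box (TATAAA), on either strand. Cxcl2 (chr5:90903649-90903948, plus strand), Cxcl1 (chr5:90890995-90891294, plus strand) and Cxcl3 (chr5:90785851-90786150, plus strand) are the neutrophil chemoattractants of chromosome 5. Ccl3 (chr11:83649329-83649628, minus strand) is a macrophage inflammatory protein gene of chromosome 11, and Cxcl14 (chr13:56296502-56296801, minus strand) had the highest fold change of all members.
Cxcl2: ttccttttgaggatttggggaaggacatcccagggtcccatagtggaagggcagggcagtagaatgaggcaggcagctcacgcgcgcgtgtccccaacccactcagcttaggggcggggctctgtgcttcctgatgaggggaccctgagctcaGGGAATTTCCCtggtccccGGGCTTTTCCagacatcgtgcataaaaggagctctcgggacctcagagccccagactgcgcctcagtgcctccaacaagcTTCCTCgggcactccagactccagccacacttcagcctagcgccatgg
Cxcl1: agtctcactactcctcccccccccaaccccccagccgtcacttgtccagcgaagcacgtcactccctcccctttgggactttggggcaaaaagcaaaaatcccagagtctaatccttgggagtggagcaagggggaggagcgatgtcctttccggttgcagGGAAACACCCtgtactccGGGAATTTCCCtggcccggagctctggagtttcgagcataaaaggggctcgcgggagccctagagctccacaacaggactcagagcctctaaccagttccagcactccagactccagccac
Cxcl3: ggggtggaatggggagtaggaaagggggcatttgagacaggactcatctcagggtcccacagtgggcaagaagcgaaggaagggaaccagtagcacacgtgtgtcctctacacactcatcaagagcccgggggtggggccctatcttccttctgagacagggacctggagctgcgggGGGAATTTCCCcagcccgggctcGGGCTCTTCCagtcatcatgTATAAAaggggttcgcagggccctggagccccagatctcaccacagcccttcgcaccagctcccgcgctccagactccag
Ccl3: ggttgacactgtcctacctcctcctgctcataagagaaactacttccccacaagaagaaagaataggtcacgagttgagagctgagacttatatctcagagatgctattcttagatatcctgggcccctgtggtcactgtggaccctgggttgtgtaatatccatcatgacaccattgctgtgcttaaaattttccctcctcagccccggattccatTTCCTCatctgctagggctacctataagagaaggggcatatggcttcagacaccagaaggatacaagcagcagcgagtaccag
Cxcl14: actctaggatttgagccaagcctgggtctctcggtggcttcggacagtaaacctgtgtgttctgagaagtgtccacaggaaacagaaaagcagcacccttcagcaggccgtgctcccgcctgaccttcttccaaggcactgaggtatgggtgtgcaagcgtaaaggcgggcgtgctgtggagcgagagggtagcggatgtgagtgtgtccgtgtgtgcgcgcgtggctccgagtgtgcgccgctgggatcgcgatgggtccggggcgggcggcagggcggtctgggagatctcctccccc

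Cxcl2, Cxcl1 and Cxcl3 each held NF-kB letters close before the start. In Cxcl2 they stood at -97 to -88 and -78 to -69, counted from the start, in Cxcl1 at -89 to -80 and -71 to -62, and in Cxcl3 at -73 to -64 and -50 to -41. The site with the letters gggaatttccc, found in all of Cxcl2, Cxcl1 and Cxcl3, reads as the motif on both strands, shifted by 1 base. Cxcl2 also held the PU.1 core letters at 3 to 8, Ccl3 held them at -33 to -28, and Cxcl3 held the TATA box at -30 to -25. Cxcl14 held none of these letters in this window. No marked motif overlapped a different motif.

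Over the 35 promoter windows of chemokine ligand genes, 7 (20%) held the NF-kB letters, at Ccl20, Cxcl1, Cxcl2, Cxcl3, Cxcl10, Ccl1 and Ccl9. Among all 32851 windows of the same length the share was 5.56%. The PU.1 core was in 14 member windows (40.0%) and 28.3% of all. The letters of AP-1 (TGANTCA) were in 8 (22.9%) and 7.81% of all, those of C/EBP (TTGCNNAA) in 7 (20%) and 10.8%, and the TATA box in 11 (31.4%) and 13.6%. Windows of near-identical copies, such as Ccl27a and Ccl27b, enter these counts more than once, and a match of letters is not a measured binding site.

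Across the chemokine ligand genes, 3 regions rose and 1 fell in leukemic cells at the authors' limit, an adjusted p under 0.001. The gains lay at Cxcl14, Ccl8 and Ccl1, and the loss covered the promoter of Cxcl2. Together they were 3.51% of the 114 regions, against a background of 2.46% of all regions called in either direction, 1.24% up and 1.22% down. At an adjusted p under 0.05, 13 member regions were higher and 12 lower, 21.9% together, against 17.2% of all regions (7.98% higher and 9.21% lower). Neither background share was matched to the abundance of the members, which is described below. The median log2 fold change was -0.16 over the members (quartiles -0.96 and 0.62) and 0.02 over all regions (quartiles -0.71 and 0.60), per the authors' deposited table. When only protein-coding genes could be nearest, 214 regions were members, with 6 that rose and 3 that fell.

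**Figure D1:**
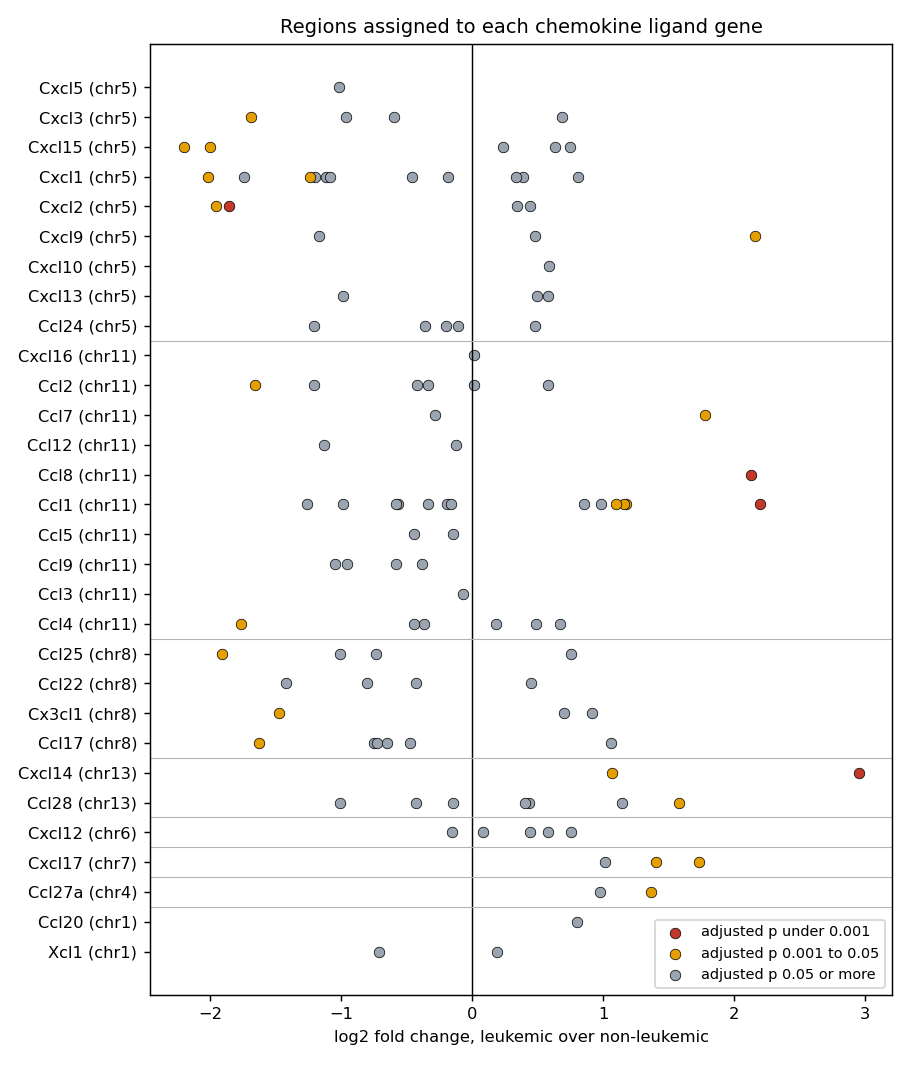
Log2 fold change, leukemic over non-leukemic, of every region assigned to each chemokine ligand gene with at least 1 region, grouped by chromosome. Each point is a region, coloured by the authors' adjusted p, and values run from -2.20 at Cxcl15 to 2.95 at Cxcl14.

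The direction differed by gene cluster. The 37 member regions on chromosome 5 had a median log2 fold change of -0.36, against 0.08 over all 9961 regions of that chromosome, and the 38 on chromosome 11 had -0.23, against 0.17 over 9838, per the authors' deposited table. The 39 members on other chromosomes had a median of 0.40 per the authors' deposited table, with no matching background. They mixed signs, from -0.87 at Ccl25 and -0.65 over Ccl22 to Ccl17 to 1.40 at Cxcl17 and 2.01 at Cxcl14. On chromosome 5 the medians were -0.97 over Cxcl5 to Cxcl2 and 0.54 over the 4 regions of Cxcl9 to Cxcl11. Both arrays of chromosome 11 had negative medians, -0.18 and -0.38. These medians describe the regions and were not tested.

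On chromosome 5 the array from Cxcl5 to Cxcl2 held ligands of Cxcr2, the receptor through which neutrophils are drawn to inflamed tissue and released from marrow. The median log2 fold change of its 25 regions was -0.97 (quartiles -1.69 and 0.34) per the authors' deposited table, and 16 of the 25 values were negative. In this array 1 region fell and 0 rose. At an adjusted p under 0.05, 7 of 25 were lower and 0 higher, where 9.21% of all regions were lower and 7.98% higher.

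The region that fell, chr5:90902352-90904038, spans 1686 bp and contains the whole Cxcl2 promoter window shown above, with both of its NF-kB sites. It stood at -1.86 on the log2 scale (adjusted p = 1.50e-04) per the authors' deposited table, a 3.62-fold lower accessibility in leukemic cells. Its log2 abundance of 3.85 was the highest of all 114 members and exceeded that of 98.3% of all regions, per the authors' deposited table. A second Cxcl2 region, 5.17 kb from the gene at chr5:90898482-90898984, stood at -1.96 (adjusted p = 0.00214) per the authors' deposited table. The other Cxcl2 regions, at chr5:90900170-90901055 and chr5:90909005-90909335, had values of 0.45 and 0.34 (adjusted p = 0.588 and 0.526) per the authors' deposited table, so the 4 Cxcl2 regions were split 2 against 2.

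Cxcl1, the neighbouring neutrophil chemoattractant, had a value near 0 at its own promoter; the difference from Cxcl2 was not tested. The region over the Cxcl1 window, chr5:90890841-90891484, stood at -0.18 (adjusted p = 1) per the authors' deposited table. Its log2 abundance was -0.52, far below the 3.85 at Cxcl2, per the authors' deposited table. The lower values at Cxcl1 lay away from the gene. The region 9.38 kb off, chr5:90881668-90882056, had a high log2 abundance of 2.97 and a log2 fold change of -1.24 (adjusted p = 0.0108) per the authors' deposited table. The region 38.0 kb off, chr5:90852923-90853499, stood at -2.02 (adjusted p = 0.00628) per the authors' deposited table. Of 11 Cxcl1 regions 8 had negative values, and the highest was 0.81 per the authors' deposited table.

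Cxcl3, another Cxcr2 ligand, had 3 negative values among 4 regions. Its promoter region, chr5:90785585-90786448, stood at -0.59 (adjusted p = 0.267) per the authors' deposited table. The region 1.78 kb from the gene, chr5:90789143-90790604, stood at -1.69 (adjusted p = 0.00276) per the authors' deposited table, and the highest Cxcl3 value was 0.69. Cxcl15, the mouse chemokine lungkine of lung epithelium, held the lowest value of all members, -2.20 (adjusted p = 0.00502) at chr5:90793566-90793735 per the authors' deposited table. Inside Cxcl15, chr5:90795507-90795687 stood at -2.00 (adjusted p = 0.0227) per the authors' deposited table. The other 3 Cxcl15 regions had positive values. The single region of Cxcl5, also a Cxcr2 ligand, stood at -1.02 (adjusted p = 0.124) per the authors' deposited table, and Ppbp, whose product is stored in platelets, had 0 regions of its own.

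**Figure D2:**
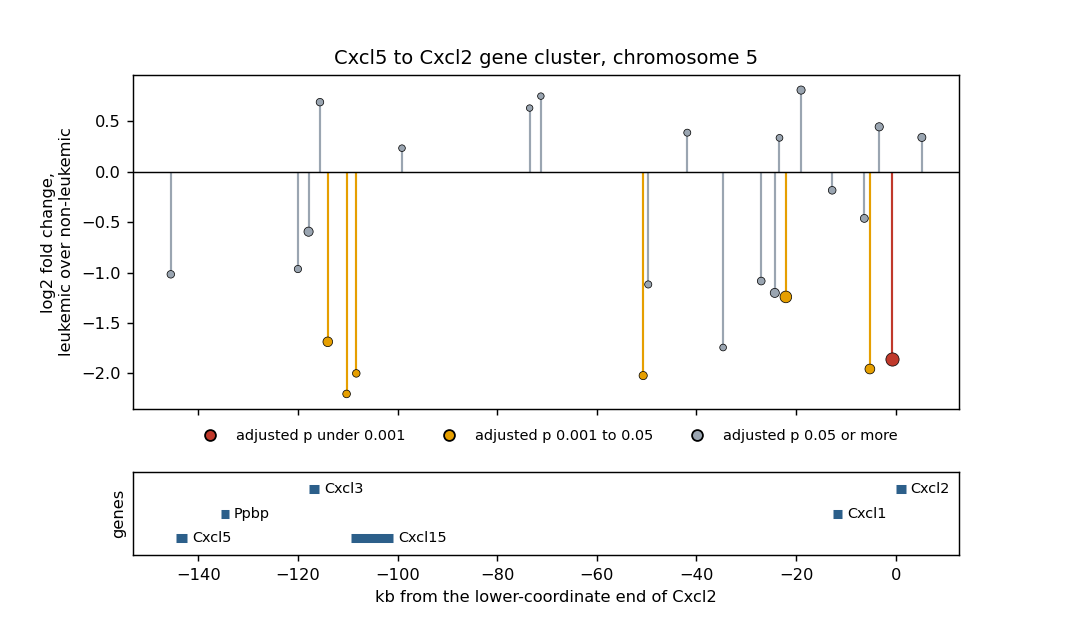
Log2 fold change of the 25 regions of the Cxcl5 to Cxcl2 array against the distance in kb from the lower-coordinate end of Cxcl2, with gene extents below. Point size grows with abundance, and the Cxcl2 promoter region at -1.86 is the most abundant.

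Regions of mature neutrophil genes had mostly negative values in the same comparison, 31 of 34. Of the marker genes S100a8, S100a9, Cxcr2, Ltf and Mmp9, 5 of 5 had regions, and the median of their log2 fold changes was -1.15 per the authors' deposited table. Of them 1 fell and 0 rose, and 15 of 34 were lower and 0 higher at an adjusted p under 0.05. The 6 monocyte and macrophage markers had a median of -0.72 over 30 regions per the authors' deposited table, with 2 that fell and 0 that rose. Lower values were not limited to markers of mature cells. The 7 progenitor markers had a median of -0.67 over 68 regions per the authors' deposited table, with 43 negative, 7 that fell and 1 that rose, and 20 were lower at an adjusted p under 0.05. They were split by gene. Medians were -2.34 at Cd34, -1.31 at Meis1 (23 regions), -0.59 at Gata2 and -0.04 at Flt3. Kit (16 regions), Cebpa and Mpo had 0.07, 0.47 and 0.61 per the authors' deposited table. Of all regions 1.22% fell, 9.21% were lower at an adjusted p under 0.05 and 49.4% were negative. The part of the neutrophil, monocyte and progenitor regions in the lower values at Cxcl2 and its neighbours was not tested. In such sorted bulk cells, fewer cells with an open region and less opening per cell cannot be told apart.

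Further along chromosome 5 lie the interferon-induced ligands of Cxcr3, which attract activated T cells. Inside Cxcl9, chr5:92322677-92323521 stood at 2.17 (adjusted p = 0.00111) per the authors' deposited table, just short of the authors' limit. Another Cxcl9 region, chr5:92327324-92327647, stood at -1.17 (adjusted p = 0.109) per the authors' deposited table. The Cxcl10 promoter region, which also lies inside Art3, stood at 0.59 (adjusted p = 0.548) per the authors' deposited table. The 4 regions of Cxcl9 to Cxcl11 thus held 0 that rose or fell. The 3 regions of Cxcl13, a B-cell attractant, ran from -0.99 to 0.58, and the 5 of Ccl24, an eosinophil attractant, from -1.21 to 0.48 per the authors' deposited table, with 0 at an adjusted p under 0.05.

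On chromosome 11 the array from Ccl2 to Ccl1 held ligands of monocytes and eosinophils. Of 24 regions 2 rose and 0 fell, and at an adjusted p under 0.05, 6 were higher and 1 lower, where 7.98% of all regions were higher and 9.21% lower. The median log2 fold change was -0.18 (quartiles -0.57 and 1.01) per the authors' deposited table, with 14 of 24 values negative. Both gains lay between genes.

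The gain beside Ccl8, which in mice encodes a ligand of Ccr8, lay 23.1 kb from the gene at chr11:82139483-82140261. It stood at 2.13 (adjusted p = 6.22e-04), 4.38-fold higher in leukemic cells, per the authors' deposited table. The gain beside Ccl1, the gene of another Ccr8 ligand, lay 4.81 kb away at chr11:82171711-82171992 and stood at 2.20 (adjusted p = 2.57e-04) per the authors' deposited table. Inside Ccl1, chr11:82177822-82178067 stood at 1.17 (adjusted p = 0.0293) per the authors' deposited table. At 18.2 and 55.9 kb from Ccl1, the regions chr11:82197830-82198097 and chr11:82235630-82235852 stood at 1.16 and 1.1 (adjusted p = 0.0483 and 0.0399) per the authors' deposited table. Among the 13 Ccl1 regions 7 had negative values, down to -1.26 at chr11:82214316-82214817 (adjusted p = 0.055) per the authors' deposited table. With the window set to 20 kb the Ccl8 region was no longer a member, and 1 region of the array rose.

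Ccl2, the main attractant of inflammatory monocytes through Ccr2, had its lowest value at the gene itself. The region chr11:82035151-82035628 reaches across the lower-coordinate end of Ccl2 and stood at -1.66 (adjusted p = 0.00402) per the authors' deposited table, the lowest of the array. The other 5 Ccl2 regions ran from -1.20 to 0.58 per the authors' deposited table, with 0 at an adjusted p under 0.05. Within 1 kb of Ccl7, another Ccr2 ligand gene next to it, chr11:82048139-82048388 stood at 1.78 (adjusted p = 0.00364) per the authors' deposited table. The region across the lower-coordinate end of Ccl2 and the region past the higher-coordinate end of Ccl7, unlike ends, thus had opposite signs. The region over the Ccl12 promoter, also a Ccr2 ligand gene in mice, stood at -1.13 (adjusted p = 0.0701) per the authors' deposited table.

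**Figure D3:**
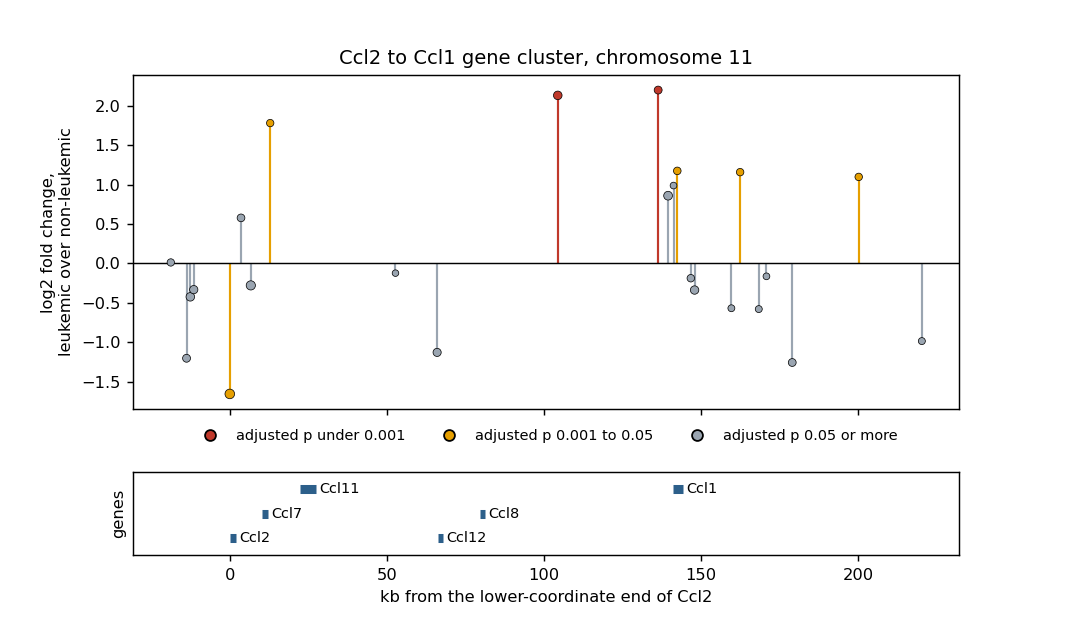
Log2 fold change of the 24 regions of the Ccl2 to Ccl1 array against the distance in kb from the lower-coordinate end of Ccl2, with gene extents below. The gains at 2.13 and 2.20 lie between Ccl8 and Ccl1, and the region at the end of Ccl2 stands at -1.66.

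The second array of chromosome 11, Ccl5 to Ccl4, encodes inflammatory attractants of monocytes and T cells. Its 13 regions held 0 that rose or fell, with a median log2 fold change of -0.38 and 10 of 13 values negative per the authors' deposited table. Inside Ccl4, the macrophage inflammatory protein gene next to Ccl3, chr11:83662163-83662828 stood at -1.77 (adjusted p = 0.00166) per the authors' deposited table, the only one at an adjusted p under 0.05. The region over the Ccl3 promoter shown above, chr11:83649111-83649890, lies inside the annotated extent of Ccl4 and was assigned to that gene. It stood at 0.49 (adjusted p = 0.14) per the authors' deposited table, with the second highest abundance of all members, 3.43. The values within the adjacent Ccl3 and Ccl4 genes thus ran from -1.77 to 0.67. All 4 regions of Ccl9, a Ccr1 ligand of mice, were negative, from -1.05 to -0.38, and Ccl5, a T cell attractant whose extent overlaps the noncoding Gm32650, had -0.45 and -0.15 per the authors' deposited table, with 0 of these 6 at an adjusted p under 0.05. The region of Cxcl16, elsewhere on chromosome 11, stood at 0.01 per the authors' deposited table.

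Outside these chromosomes the gain at Cxcl14, a homeostatic chemokine of epithelia, was the highest of all members. The region chr13:56296419-56296710 overlaps 209 of the 300 bases of the Cxcl14 promoter window. It stood at 2.95 (adjusted p = 5.94e-05) per the authors' deposited table, a 7.75-fold higher accessibility in leukemic cells, at a log2 abundance of 0.27. Its other region, 9.02 kb away at chr13:56279523-56279721, stood at 1.07 (adjusted p = 0.0341) per the authors' deposited table. On the same chromosome 1 of 7 regions of Ccl28, a ligand of Ccr10 from mucosal epithelia, had an adjusted p under 0.05, at 1.58 (adjusted p = 0.00913) per the authors' deposited table.

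Values at other single genes were mixed. All 3 regions inside Cxcl17, a mucosal chemokine gene on chromosome 7 whose extent overlaps a long noncoding RNA, were positive. They stood at 1.73, 1.40 and 1.02 (adjusted p = 0.00339, 0.00983 and 0.0544) per the authors' deposited table. Ccl27a, a skin chemokine gene on chromosome 4, had 1.37 (adjusted p = 0.0241) over its main promoter and 0.97 (adjusted p = 0.123) over part of an inner one per the authors' deposited table. Ccl27a has a near-identical copy, Ccl27b, and how reads that match both were treated was not given in the sources used here. Cxcl12, the retention factor of the marrow niche, had 5 regions from -0.16 to 0.75 per the authors' deposited table, with 0 at an adjusted p under 0.05.

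Chromosome 8 carries Ccl22 and Ccl17, ligands of Ccr4 made by dendritic cells, with Cx3cl1, the membrane-bound fractalkine, between them. Of their 13 regions 0 rose or fell and 9 were negative, with a median log2 fold change of -0.65 per the authors' deposited table. At one end of Ccl17, chr8:94811797-94813125 stood at -1.63 (adjusted p = 0.00945) per the authors' deposited table, and the highest value of the array, 1.06 (adjusted p = 0.0714), also lay at Ccl17. Inside Cx3cl1, chr8:94778344-94779717 stood at -1.47 (adjusted p = 0.012) while its promoter region stood at 0.70 (adjusted p = 0.14) per the authors' deposited table. Inside Ccl25, the thymic and gut ligand of Ccr9, chr8:4335678-4335982 stood at -1.91 (adjusted p = 0.00954) per the authors' deposited table. On chromosome 1, Ccl20, a Ccr6 ligand, stood at 0.80, and Xcl1, the attractant of cross-presenting dendritic cells, at 0.19 and -0.71 per the authors' deposited table, with 0 at an adjusted p under 0.05.

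Among the 29 of 41 genes with a promoter window, regions over the windows did not share a direction. The promoters of Ccl2, Ccl4, Ccl5, Ccl7, Cxcl5, Ccl24 and the other genes without a window are not in these counts. Of 15 member regions that overlapped a window, covering 14 ligand genes, 8 were positive and 7 negative, and 3 had an adjusted p under 0.05, those at Cxcl14, Ccl27a and Cxcl2. Over all regions at gene ends, a wider set that takes in both limits of any gene, 18.2% did. By place, the 30 members within 1 kb of a gene end had a median log2 fold change of -0.41, against 0.19 over all 24895 regions at gene ends, per the authors' deposited table. The 26 members inside genes had 0.19, against -0.02 over all 85906 interior regions per the authors' deposited table. The 58 members between genes had -0.20, against -0.03 over all 50177 intergenic regions per the authors' deposited table.

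Abundance, the authors' read level per region, differed among members. Their median was -0.51 on the log2 scale against -1.17 over all regions, per the authors' deposited table. Of the 30 members in the most abundant of 5 equal classes of all regions, 19 were negative, with a median log2 fold change of -0.44 against 0.01 over all 32196 regions of that class per the authors' deposited table. They held 8 of the 12 members lower at an adjusted p under 0.05, and over all regions the same class held 6725 of 14825. Of the 13 members in the least abundant class 0 had an adjusted p under 0.05, where 1.74% of all such regions did. In the most abundant class 36.7% of members did, against 34.3% of all its regions. At the authors' limit, 7.85% of all regions of that class were called, 3.41% of the next and 0.00311% of the least abundant. The members called there were 6.67%, 5.41% and 0%. Any part of abundance in the members' shares over all classes was not tested.

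**Figure D4:**
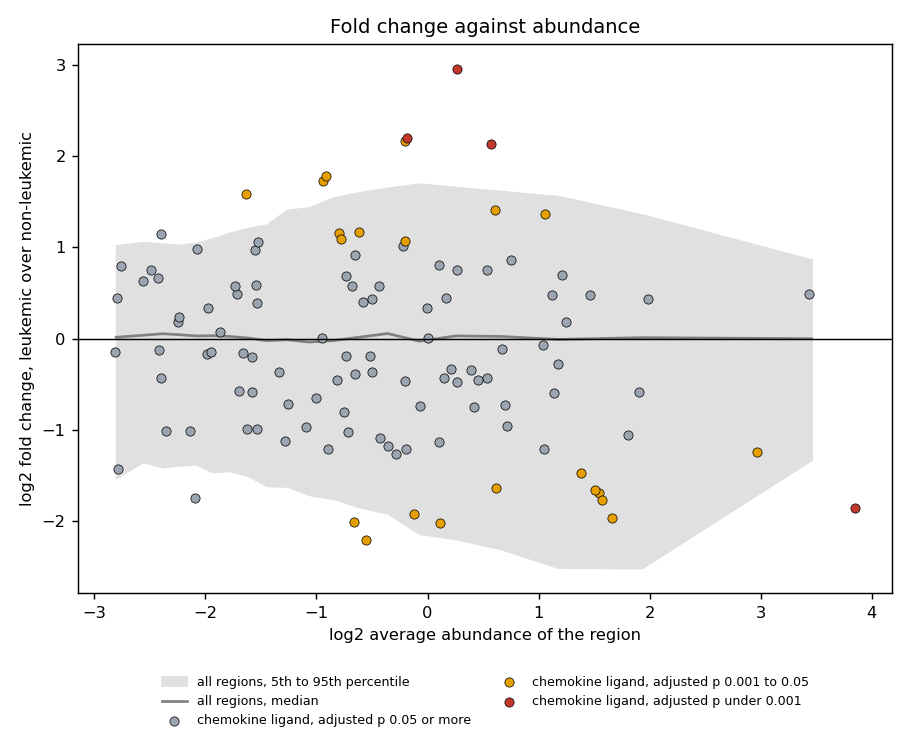
Log2 fold change against log2 average abundance for the 114 chemokine ligand regions (points, coloured by adjusted p), over the median (line) and the 5th to 95th percentiles (band) of all regions in 20 equal classes of abundance. Cxcl2 at 3.85 and -1.86 is the point at the far right, and Cxcl14 at 0.27 and 2.95 is the highest.

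All 23 chemokine receptor genes had regions, 162 in all. Of these 3 rose and 3 fell, 3.70% together, against 2.46% of all regions. Of the 162 values 101 were negative, and their median log2 fold change was -0.35 per the authors' deposited table. At an adjusted p under 0.05, 15 were higher and 30 lower, where 7.98% of all regions were higher and 9.21% lower. Single regions between genes rose at Ccr2, the receptor of Ccl2, with 3.14 (adjusted p = 3.03e-05), at Ccr7 with 3.02 (adjusted p = 3.06e-05) and at Cxcr4, the receptor of Cxcl12, with 2.14 (adjusted p = 3.62e-04) per the authors' deposited table. The medians over all regions of these genes were -0.55 at Ccr2 (12 regions), -0.002 at Ccr7 (12 regions) and 0.14 at Cxcr4 (29 regions) per the authors' deposited table. Single regions fell at Ackr3, a scavenger of Cxcl12, with -3.11 (adjusted p = 1.11e-04), at Xcr1 with -2.97 (adjusted p = 9.94e-04) and at Ccrl2 with -1.96 (adjusted p = 7.08e-04) per the authors' deposited table. There the medians over all regions were -1.40 at Ackr3 (7 regions), -1.70 at Xcr1 (2 regions) and -0.96 at Ccrl2 (3 regions) per the authors' deposited table. Cxcr2, the receptor of Cxcl1, Cxcl2 and Cxcl3, had 6 regions, of which 0 rose or fell, and their median log2 fold change was -1.26 per the authors' deposited table.

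Genes of NF-kB signalling and its inducers, 19 with 150 regions, had 3 that fell (2%) and 0 that rose, where 1.22% of all regions fell and 1.24% rose. The 3 that fell in this list lay inside Nfkb1, the p50 subunit gene, at -3.12 (adjusted p = 5.57e-05), inside Il1r1 at -2.61 (adjusted p = 7.41e-04) and at Il1b at -4.12 (adjusted p = 9.96e-04) per the authors' deposited table. Il1b lies on chromosome 2, where the median log2 fold change of all regions was -0.56 per the authors' deposited table. The median over the list was -0.34 per the authors' deposited table, and 95 of the 150 values were negative. Nfkb1 with 41 regions and Il1r1 with 22 weighed most in it, with medians of -0.50 and -0.37. Medians were positive at Relb, Nfkb2, Rela, Nfkbib, Ikbkg, Chuk and Nfkbia, from 0.06 at Relb to 0.88 at Nfkbia, per the authors' deposited table. At an adjusted p under 0.05, 25 of the list were lower and 6 higher, where 9.21% of all regions were lower and 7.98% higher. Rela, Relb, Nfkb2, Rel, Tnf and Nfkbia had 0 regions that rose or fell.

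The label of the cells was checked against marker genes. All 7 progenitor markers had regions, with a highest log2 abundance of 3.26 at Kit and 4.84 at Cebpa, per the authors' deposited table. Of their 68 regions 11.8% were called, against 2.46% of all regions, the 7 that fell at Cd34, Meis1 and Flt3 and the 1 that rose at Mpo. Markers of cells that the sort should deplete had regions as well, at 6 of 6 erythroid, 4 of 4 B cell and 5 of 5 T or NK cell genes, with highest abundances of 4.11, 2.41 and 2.52 per the authors' deposited table. Of the 23 erythroid, 70 B cell and 21 T or NK cell regions 0 rose or fell, where 2.46% of all regions did. Their median log2 abundances were -1.18, -1.97 and -1.55, against -1.17 over all regions, per the authors' deposited table. Of all regions in the abundance class that holds the erythroid median 0.916% were called. In the class of the B cell and T or NK cell medians 0.13% were, so few calls could be seen at such levels. The 4 megakaryocyte markers had 2 regions that fell and 0 that rose among 31, and the 4 endothelial and stromal markers 0 of 44, where 1.22% of all regions fell and 1.24% rose.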

How the data were processed

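ATAC-seq libraries were made from sorted mouse marrow cells, per the labels' protocols. Per the submitters' processing notes, GRCm38 (mm10), Bowtie2 2.4.1, SAMtools 1.10.2 and Genrich 0.6 are named, and csaw, which tests windows of reads, stands in the title of the deposited table. Normalization, filters and any shift for the transposase's cut were not given in the sources used here. By region, the authors deposited a log2 fold change, a log2 average abundance (a reading that rests on position and range), a p-value and an adjusted p-value. The last equals a Benjamini-Hochberg adjustment over all 160978 regions to within 2.39e-15, and every adjusted p printed is the authors'. The deposited changed sets, 2002 up and 1961 down, equal an adjusted p under 0.001 with the matching sign, which rose and fell refer to. Coordinates are as deposited, without knowledge of whether the first base of a chromosome is 0 or 1.

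The genes were those of RefSeq GRCm38.p6 (49997 genes), and 158996 regions lay within 100 kb of a gene. A gene end is within 1 kb of either limit of any gene. An array is a run of member genes less than 1 Mb apart. Assignment was tested on simulated data (Python 3.11.15, pandas 2.3.3, numpy 2.4.6). Named regions were every member at an adjusted p under 0.001, the lowest adjusted p of each gene and each gene end at under 0.05, and the extremes of each array. Promoter regions, remaining regions of the same genes and highly abundant regions were named after their values were seen. Members and lists were chosen with earlier results of these data known. No test across mice, set test or resampling was made. Alternatives varied the threshold, the overlap, the gene set, the window, the distance and the abundance.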

Additional observations from a re-analysis of the deposited data

How the results depend on the processing

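The direction and size of the median log2 fold changes of the members and of each array, and all counts, held to within 1.5 times with distance taken from the region edge, the lowest class of abundance left out, overlap of 1 base with a changed region, and, chosen after the data were seen, regions shared with other genes left out. At an adjusted p under 0.0001 the members had 1 region that rose and 0 that fell, the Ccl2 array 0 that rose, the Cxcl2 array 0 that fell, receptors 0 that fell and the NF-kB list 1 that fell. At under 0.05, 13 of 114 members were higher and 12 lower, where 7.98% of all regions were higher and 9.21% lower. The Ccl2 array then had 6 of 24 regions higher and 1 lower, the Ccl5 to Ccl4 array 1 of 13 lower and the Ccl27a array 1 of 2 higher. The Cxcl2 array had 7 of 25 lower, the Cxcl9 array 1 of 4 higher and the Ccl22 to Ccl17 array 2 of 13 lower. At the same limit, receptors had 15 of 162 regions higher and 30 lower, and the NF-kB list had 6 of 150 higher and 25 lower. With protein-coding genes only, 6 members rose and 3 fell, the Ccl2 array had 4 that rose, the Ccl5 to Ccl4 array 1 that fell, the Cxcl2 array 2 that fell and the NF-kB list 7 that fell. This alternative adds 100 regions whose nearest gene of any kind is another gene. Within 20 kb, 1 region of the Ccl2 array rose. No alternative moved a median by over 1.5 times. Leaving out a replicate was not possible. No paired analysis was possible because no file gives values per library. Unknown depth limits every value.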

Other observations

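Counting only protein-coding genes as possible nearest genes reached 5 further changed regions next to chemokine ligand genes, chosen after their values were seen. At 58.9 kb from Cxcl5, nearest to the gene Gm36084, chr5:90700262-90700480 stood at -3.92 on the log2 scale (adjusted p = 4.06e-05) per the authors' deposited table. At 19.9 kb from Ccl5, nearest to Gm32650, chr11:83550085-83550666 stood at -2.86 (adjusted p = 5.94e-05) per the authors' deposited table. Nearest to Gm11419, 26.5 and 20.3 kb from Ccl2, chr11:82008870-82009213 and chr11:82015073-82015429 stood at 2.13 and 1.62 (adjusted p = 9.13e-05 and 7.18e-04) per the authors' deposited table. At 56.4 kb from Cxcl14, nearest to Gm40960, chr13:56352439-56353883 stood at 2.79 (adjusted p = 6.61e-05) per the authors' deposited table. The regions near Ccl2 were higher while the region at the end of Ccl2 stood at -1.66 per the authors' deposited table.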
